A study of Homo sapiens with 8 samples.

Results

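LARP1, PRRC2B and UBAP2L are 3 genes that encode proteins bound to mRNA, taken by gene name from a table of N1-methyladenosine (m1A) positions. They are 3 of the 4945 genes with a listed position, and hold 41 of the 9962 listed positions. The genes were chosen with these reads known, for a comparison of the direction of neighbouring positions, so their values are a description and carry no test. The siTRMT6 group was neuroblastoma cells transfected with small interfering RNA against TRMT6, and the control group was the same cells with a control treatment, with 2 replicates of each. No dose, time or count of cultures is given, so replicates may be technical. The titles give the line as SK-N-BE, but the cell line field gives SK-N-AS. Markers of the noradrenergic state of neuroblastoma cells, PHOX2A, HAND2 and DBH, had listed positions, as did MYCN. So did the mesenchymal state markers VIM and TWIST1. Being listed does not tell which line was used. TRMT6 had no listed position. Reads at m1A positions do not measure transcript levels, so its silencing could not be followed here.

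The complex of TRMT6 and TRMT61A methylates tRNA, and mRNA stems that resemble a tRNA loop, to m1A. LARP1 is a La-related protein that binds the cap and the terminal oligopyrimidine tract at the start of mRNAs for ribosomal proteins and translation factors, and acts downstream of the kinase mTOR. PRRC2B is a proline-rich, coiled-coil protein that binds mRNA and associates with translation initiation factors. UBAP2L has a ubiquitin-associated domain, associates with ribosomes and with G3BP proteins, and takes part in the assembly of stress granules. These mRNAs are the object of the measurement here. The reads were taken at the transcripts of the 3 genes and say nothing on the RNAs that their proteins bind.

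The listed reads of the whole table numbered 40771 in siTRMT6 1, 13812 in siTRMT6 2, 8655 in control 1 and 46007 in control 2. These totals cover listed positions and are not sequencing depths. The largest p-value in the authors' deposited table was 0.0478, so the table appears to have been filtered on it. LARP1 positions with 19 reads of control 1 and with 19 reads of control 2 carried the same p-value. It thus appears to rest on reads pooled by condition, but how it was computed is not given. A deposited count of 0 may mean no reads or no call. All reads were polyadenylated RNA taken as m1A immunoprecipitates, and input values are not used here.

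The 41 positions held 350 siTRMT6 reads and 288 control reads, with 6 to 32 reads per position and a median of 15, against a median of 9 over all listed positions. Of the 41, 40 had reads in 1 library, and 1, in LARP1, had reads in both siTRMT6 libraries. Reads were found at 15 positions in siTRMT6 1, 11 in siTRMT6 2, 5 in control 1 and 11 in control 2. Coding sequence held 32 positions (78.0%, against 63.8% of all listed positions). The 3' UTR held 9 (22.0%, against 20.9%). The 5' UTR held 0, against 11.5% of all listed positions. The authors' deposited table called 25 of the 41 higher and 16 lower in siTRMT6 at an adjusted p below 0.05, where 49.6% of all listed positions were called higher and 50.4% lower. The members were chosen from this comparison, so nothing is read from these counts. The log2 fold changes in the authors' deposited table ran from -6.04 to 5.82, set at 40 of the 41 positions by the reads of 1 library.

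**Figure D1:**
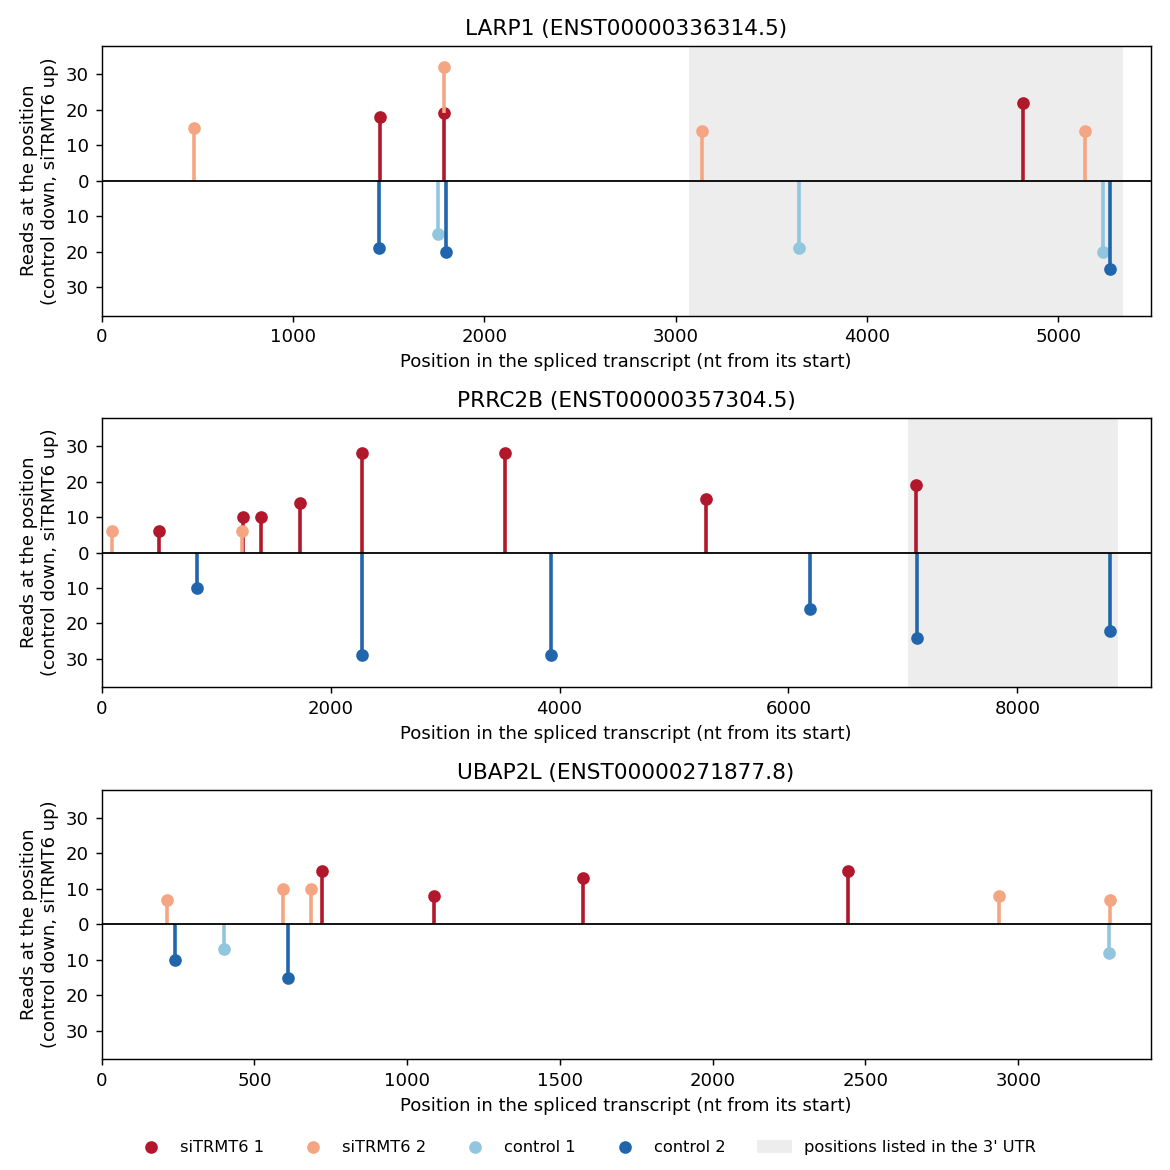
Reads at each of the 41 listed positions (y axis, siTRMT6 reads upward and control reads downward) against the position in the spliced transcript (x axis, nt from its start), 1 panel a gene, coloured by library. The 2 siTRMT6 libraries are stacked where they share a position, which happens once, in LARP1 at 1789. Bars that face each other closely, such as those of PRRC2B at 2271 and 2275, are neighbouring positions of opposite direction.

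LARP1 lies on the plus strand of chromosome 5, from 154682979 to 154817605 (GRCh38), and had 12 listed positions, all placed on transcript ENST00000336314.5. The siTRMT6 libraries held 59 and 56 of its reads, and the control libraries 54 and 64. The 4 libraries thus had almost equal numbers of LARP1 reads, while their totals of listed reads differed widely. Per 10000 listed reads, LARP1 had 14.5 in siTRMT6 1 and 40.5 in siTRMT6 2, against 62.4 in control 1 and 13.9 in control 2. The spread within each condition was larger than the difference between conditions. Single LARP1 positions had 14 to 32 reads.

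The coding sequence of LARP1 held 6 positions, 5 of them in 2 tight groups. At 154799984 (transcript position 1451) control 2 had 19 reads, and at 154799990 (1457), 6 nt on, siTRMT6 1 had 18 reads. In the authors' deposited table these adjacent positions carry a log2 fold change of -5.43 and of 4.99. Their reads together were 48.6% from siTRMT6 (exact Clopper-Pearson 95% interval 31.9 to 65.6). The second group spans 42 nt, from 154802257 to 154802298. It had 19 reads of siTRMT6 1 and 13 of siTRMT6 2 at 154802286 (1789), with 15 reads of control 1 placed 29 nt before (1760) and 20 reads of control 2 placed 12 nt after (1801). All 4 libraries therefore had reads in this stretch, as in 13 of the 8488 joined regions of the table. Summed, it had 32 siTRMT6 reads and 35 control reads, 47.8% from siTRMT6 (exact interval 35.4 to 60.3). The sixth coding position, 154792746 (482), had 15 reads of siTRMT6 2 and none in the other libraries.

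The 3' UTR of LARP1 held the other 6 positions, from transcript position 3136 to 5271. The first 3 stood alone. At 154814148 siTRMT6 2 had 14 reads, at 154814656 control 1 had 19 reads, and at 154815827 siTRMT6 1 had 22 reads. The last 3 lay within 130 nt: siTRMT6 2 had 14 reads at 154816154, control 1 had 20 at 154816246 and control 2 had 25 at 154816283. Here the control libraries had neighbouring positions 37 nt apart, and siTRMT6 1 had no listed reads. The stretch summed to 14 siTRMT6 reads and 45 control reads, 23.7% from siTRMT6 (exact interval 13.6 to 36.6), a log2 of -1.68 with each condition divided by its listed reads. It was the most uneven of the stretches of the 3 genes that held both conditions, and the only one whose counting interval excluded 50%. That interval covers counting error only, and the stretch was singled out after its values were seen.

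PRRC2B lies on the plus strand of chromosome 9, from 131373651 to 131500193, and had 16 listed positions, 13 in coding sequence and 3 in the 3' UTR. Only 3 genes had more positions. Its reads came almost wholly from the larger library of each condition: siTRMT6 1 had 130 and siTRMT6 2 had 12, against 0 in control 1 and 130 in control 2. Per 10000 listed reads this was 31.9 in siTRMT6 1 and 8.69 in siTRMT6 2, against 0 in control 1 and 28.3 in control 2. The gene total thus differed more within a condition than between them. On transcript ENST00000357304.5 the positions ran from 89 to 8811.

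The early part of the PRRC2B coding sequence was listed mostly in siTRMT6, at low reads. Positions 131430178 and 131455130 had 6 reads each in siTRMT6 2. Positions 131439034, 131455136, 131459290 and 131465037 had 6, 10, 10 and 14 reads in siTRMT6 1, and 131446563 had 10 in control 2. At 131455130 and 131455136, 6 nt apart, both siTRMT6 libraries had reads and neither control library did. At 131473616 (transcript position 2271) control 2 had 29 reads and 4 nt on, at 131473620 (2275), siTRMT6 1 had 28 reads, 49.1% of the pair (exact interval 35.6 to 62.7). The authors' deposited table gives these bases log2 fold changes of -6.04 and 5.62.

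Further on, siTRMT6 1 had 28 reads at 131475598 and control 2 had 29 at 131475996. These bases were placed on ENST00000357304.5 alone. On ENST00000405995.2 the positions to either side follow each other directly, at 2446 and 3368, in place of 2275 and 5279. Position 131482758 had 15 reads in siTRMT6 1 and 131488004 had 16 in control 2. In the 3' UTR, siTRMT6 1 had 19 reads at 131496245 and control 2 had 24 at 131496251, 6 nt on, 44.2% from siTRMT6 (exact interval 29.1 to 60.1). Control 2 had 22 reads at 131497940, a base also placed on a transcript of RP11-334J6.7 on the minus strand. Without a stated strand rule, the reads of these overlapping genes cannot be told apart.

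UBAP2L lies on the plus strand of chromosome 1, from 154220172 to 154271510, and had 13 listed positions, all in coding sequence, placed on 5 transcripts. It had the lowest median of reads per position of the 3 genes, 10, with a range of 7 to 15. The siTRMT6 libraries had 51 and 42 reads at 9 positions, against 15 and 25 control reads at 4 positions. Both siTRMT6 libraries had more UBAP2L reads than either control library. Per 10000 listed reads UBAP2L had 12.5 in siTRMT6 1 and 30.4 in siTRMT6 2, against 17.3 in control 1 and 5.43 in control 2. On that scale the groups overlap.

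The UBAP2L positions with control reads lay at 241, 400 and 611 of ENST00000271877.8 and, near the last listed base, at 3297. Control 2 had 10 reads at 154225197 and siTRMT6 2 had 7 at 154225170, 27 nt before. Control 1 had 7 reads at 154228679, with no listed neighbour within 200 nt on the genome. At 154234737 siTRMT6 2 had 10 reads, and 18 nt on, at 154234755, control 2 had 15, so that 40.0% of the pair came from siTRMT6 (exact interval 21.1 to 61.3). The next exon had siTRMT6 reads only, 10 of siTRMT6 2 at 154235231 and 15 of siTRMT6 1 at 154235267, 36 nt apart. Between them and 154268883 lay 4 positions, all with siTRMT6 reads: 8, 13 and 15 of siTRMT6 1 at 154246250, 154251203 and 154257149, and 8 of siTRMT6 2 at 154261049. The last pair lay 4 nt apart, with 7 reads of siTRMT6 2 at 154268887 and 8 of control 1 at 154268883. This pair was placed on 3 of the 5 transcripts.

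Neighbouring positions of the 3 genes mostly had opposite directions, as did those of all genes. Within 200 nt on the genome there were 12 neighbouring pairs, 4 to 92 nt apart. Of these, 9 set a siTRMT6 position against a control position (75%) and 3 had the same direction. Over all genes the same held for 1569 of 2086 pairs (75.2%), so the share in these genes is that of the table. The opposite pairs had a median distance of 12 nt, against 19 nt over all genes. None of the 12 pairs had reads of 1 library at both bases, nor had any of the 2086. Over all genes, positions of 1 library in a gene were never closer than 317 nt. A pair within 200 nt therefore always joined different libraries, and nothing is read from the share of opposite pairs. In the 3 genes, positions of 1 library were never closer than 494 nt on the genome. Counted base by base, each member of an opposite pair had a fold change far from 0 in the authors' deposited table, while 40.0% to 68.1% of the reads of the 9 pairs came from siTRMT6. A filter on a p-value favours large fold changes, and an opposite pair holds reads of both conditions by definition. LARP1 154802286 lies in the pairs at 68.1% and 61.5%, while its whole stretch was 47.8% from siTRMT6.

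Joined within 200 nt, the 41 positions formed 29 stretches, of which 19 were single positions, against 6647 of the 8488 stretches of all genes. Both conditions were held by 8 of the 29 (27.6%, against 17.3% of the 8488). As 98.6% of all listed positions had reads in 1 library, a single position rarely holds both conditions. The 2 shares thus also depend on how many stretches were single positions, and no excess is read from them. The 3 genes were chosen with such neighbours in view, so the share is given as a description. LARP1 and UBAP2L had 3 stretches of both conditions each and PRRC2B had 2. Of the 96 genes with at least 8 positions, 68 had 2 or more and 19 had 3 or more. The 8 stretches had log2 values from -1.68 to -0.049 on the scale of listed reads, with a median of -0.26, against a median of -0.15 over the 1470 stretches of all genes that held both conditions. Each of the 8 had fewer siTRMT6 reads than control reads. This direction depends on the scale: with TMM scaling, 4 of the 6 that edgeR tested had a log2 above 0, the range being -1.02 to 0.29. A stretch enters this set only if each condition had a listed position there, which favours ratios near 1. Without siTRMT6 1 the 8 fell to 5, without siTRMT6 2 to 4 and without control 2 to 3.

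**Figure D2:**
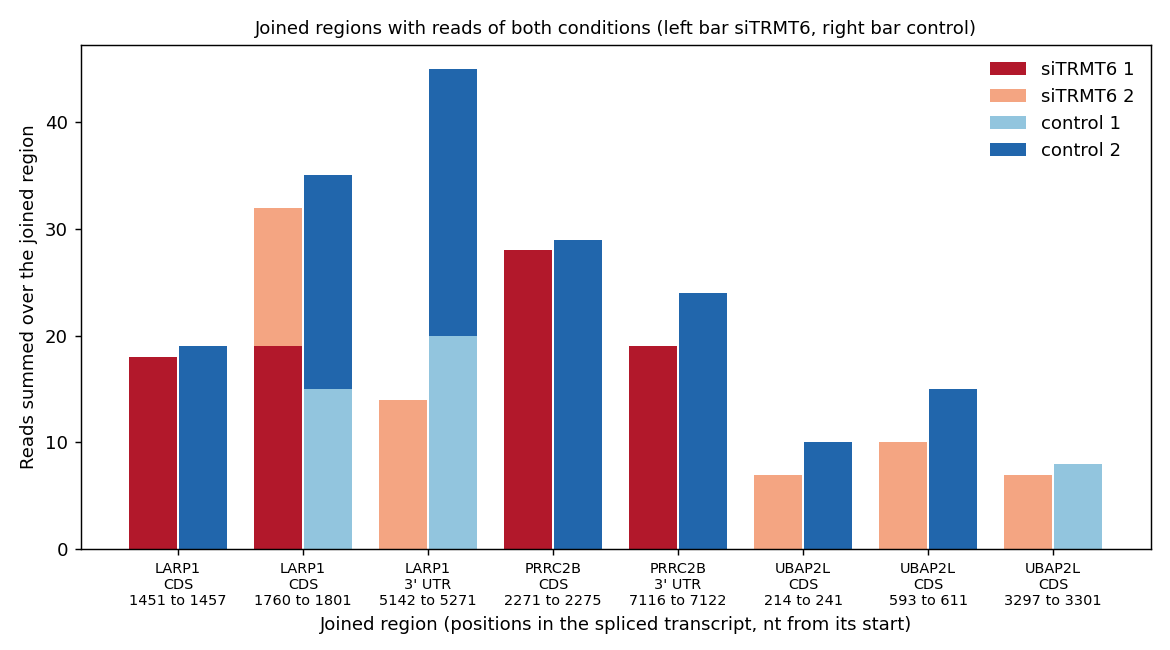
Reads summed over the 8 joined stretches that held both conditions (y axis), by gene, transcript region and position in the spliced transcript (x axis), with siTRMT6 left and control right and the libraries stacked. The bars are close in 7 stretches, and in the LARP1 3' UTR stretch siTRMT6 had 14 reads against 45 in control.

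Measured along the spliced transcript, 16 neighbouring pairs lay within 200 nt, 4 of them across an intron. In UBAP2L the control 2 position at 154234755 and the siTRMT6 2 position at 154235231 were 476 nt apart on the genome and 73 nt apart on ENST00000271877.8. The 4 positions from 154234737 to 154235267 thus lay in 1 stretch of mRNA, at 593, 611, 684 and 720, with 10, 10 and 15 siTRMT6 reads against 15 control reads. In the transcript ENST00000428931.2 the middle positions were at 611 and 651, and ENST00000613315.1 was not listed for 154234755. In PRRC2B, siTRMT6 1 had 10 reads at each of 1236 and 1393, 157 nt apart on the transcript and 4154 nt on the genome. This was the only neighbouring pair of the 16 with reads of 1 library at both bases. With spliced distances 11 of the 16 pairs were opposite.

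**Figure D3:**
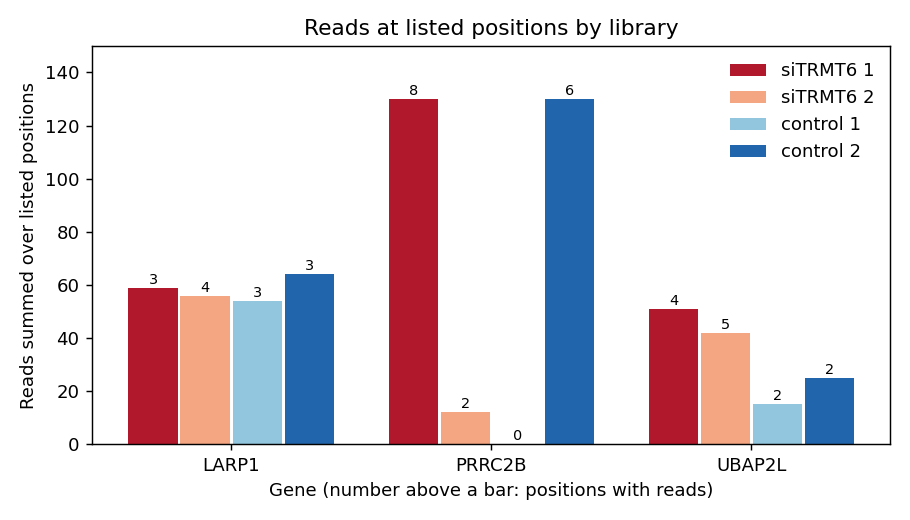
Reads summed over the listed positions of each gene (y axis) in siTRMT6 1, siTRMT6 2, control 1 and control 2, with the number of positions above each bar. LARP1 had 54 to 64 reads in every library, PRRC2B had 130 in siTRMT6 1 and in control 2 and 12 and 0 in the others, and UBAP2L had 51 and 42 in siTRMT6 against 15 and 25 in control.

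Summed over each gene, with each condition divided by its listed reads, siTRMT6 over control gave a log2 of -0.035 for LARP1 (115 against 118 reads), 0.13 for PRRC2B (142 against 130) and 1.22 for UBAP2L (93 against 40). On the scale recovered from the authors' deposited fold changes, the values were -0.22, -0.06 and 1.03. With TMM scaling in edgeR they were 0.17, 0.29 and 1.45, so the signs for LARP1 and PRRC2B depend on the scale. From the relative spread of the replicates, the approximate SD of the log2 of a single siTRMT6 library over a single control library was 1.62, 2.35 and 1.36. The 2.35 of PRRC2B includes control 1, which had 0 reads and so has no log2 of its own. This approximate SD is not the spread of the summed values, which was not computed. The direction changed for each gene when single libraries were left out. For LARP1 the value was 0.91 without siTRMT6 1, -0.58 without siTRMT6 2, 0.60 without control 1 and -1.57 without control 2. For PRRC2B it was -1.45 without siTRMT6 1, 0.42 without siTRMT6 2 and -0.12 without control 1, and without control 2 no control reads were left. For UBAP2L it was 2.06 without siTRMT6 1, 0.77 without siTRMT6 2, 1.65 without control 1 and -0.02 without control 2. The UBAP2L difference was thus not seen without control 2, the library with the most listed reads, which had 25 reads in this gene.

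The 4 libraries were also fitted over the whole table with the quasi-likelihood test of edgeR. One of the 41 positions passed the filter on low counts, the LARP1 position 154802286 with 19 and 13 siTRMT6 reads and no control reads, and it was called higher, as were 38.2% of the 34 positions tested. The filter kept this position because both siTRMT6 libraries had reads there, and the fit used the reads that chose the gene, so nothing is read from the call. The call was lost with DESeq2, with no filter on low counts, with the replicate number as a block, and without siTRMT6 2, control 1 or control 2. Without siTRMT6 1 the position was not tested. Joined with its neighbours 29 and 12 nt away, the same stretch was not called, with an edgeR log2 of 0.16. Of the 29 stretches, 7 were tested and 0 were called, where 0% of 525 stretches of all genes were called (131 at an unadjusted p under 0.05 in edgeR, 0 called by DESeq2). Of the 7, 1 had an unadjusted p under 0.05 in edgeR, and nothing is read from it in genes chosen with these reads known. The UBAP2L stretch at 154235231 to 154235267, with 15 and 10 siTRMT6 reads and no listed control reads, was among the 7, with an edgeR log2 of 6.81. All 3 genes passed the filter as gene sums and 0 were called, with 0 at an unadjusted p under 0.05. Over all genes 0% of 975 were called (126 at an unadjusted p under 0.05 in edgeR). DESeq2 called 1 gene, which was none of the 3. A missing call in libraries of such unequal size does not show that the genes were alike in both conditions.

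**Figure D4:**
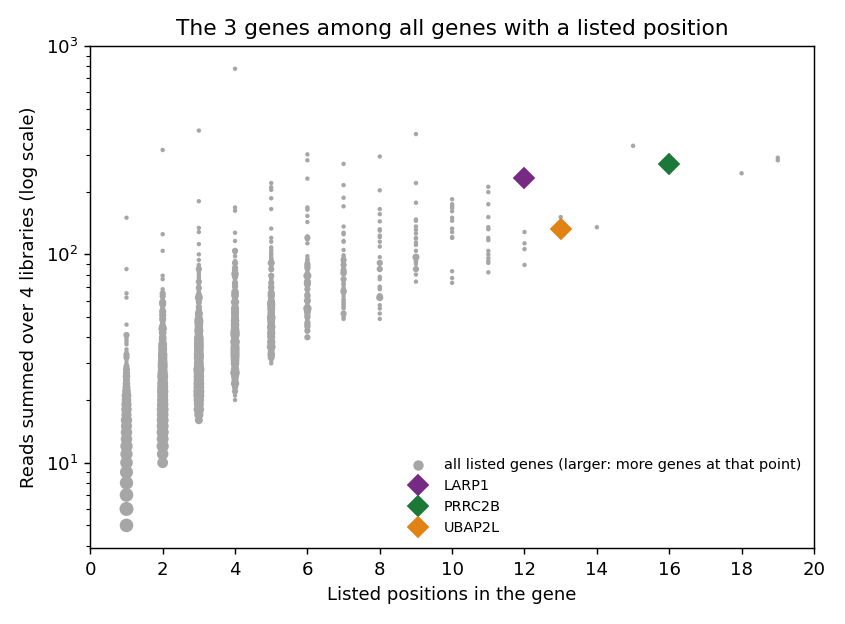
Listed positions per gene (x axis) against reads summed over the 4 libraries (y axis, log scale) for all 4945 genes, with LARP1, PRRC2B and UBAP2L as diamonds. PRRC2B, with 16 positions and 272 reads, and UBAP2L, with 13 and 133, lie toward the right edge, as does LARP1 with 12 and 233.

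In the number of positions the 3 genes stood near the top of the table. LARP1 had 9 genes above it, PRRC2B 3 and UBAP2L 6. By reads, 13 genes were above LARP1, 10 above PRRC2B and 56 above UBAP2L. Of their paralogues, PRRC2A had the same total as PRRC2B, 272 reads, at 7 positions: 141 and 57 in siTRMT6 and 0 and 74 in control. PRRC2C had 10 positions, with 49 and 11 siTRMT6 reads against 19 and 54 control reads. UBAP2 had no listed position. Of 6 other genes of the La family, LARP7, which binds the 7SK RNA, had 8 and 0 siTRMT6 reads and 7 and 9 control reads, and SSB, the La protein itself, had 7 reads in control 2. LARP1B, LARP4, LARP4B and LARP6 were not listed. The closest paralogue of LARP1 thus had no listed position, while both paralogues of PRRC2B did.

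Of 14 genes for stress granule and ribonucleoprotein partners, 11 were listed, with 10 positions higher and 19 lower in siTRMT6 by direction of the pooled reads (34.5% higher, against 49.6% of all listed positions). None of these positions passed the low-count filter of edgeR, so 0 were tested. ATXN2L, an ataxin-2-like protein of stress granules, had the most, with 90 and 7 siTRMT6 reads and 0 and 68 control reads at 8 positions, in 3 stretches that held both conditions. DDX3X, an RNA helicase, had 32 reads in siTRMT6 1 alone. CAPRIN1, which binds G3BP proteins, had 7 and 17 control reads, FXR1 had 22 in control 2, and neither had siTRMT6 reads. USP10, another G3BP partner, had 6 and 6 siTRMT6 reads and 8 in control 2. DDX6, a helicase of mRNA decapping, had 19 reads in control 2. G3BP2, TIA1 and TIAL1 were not listed. Of the 11 listed genes, ATXN2L and USP10 had reads in both conditions.

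Of 15 general mRNA-binding and cap-binding genes, 9 were listed, with 17 positions higher and 12 lower (58.6% higher, against 49.6% of all listed positions), and 0 of these positions passed the filter of edgeR. EIF4G1, the scaffold of the cap-binding complex, had 22 and 24 siTRMT6 reads against 33 and 54 control reads at 5 positions, and was the only gene of this list with reads in every library. EIF4B, a cofactor of the helicase EIF4A1, had 46 and 20 siTRMT6 reads against 0 and 55 control reads at 8 positions. YBX1, a cold-shock domain protein that packages mRNA, had 0 and 43 siTRMT6 reads against 21 and 20 control reads. EIF4A1 had 20 and 12 against 0 and 48, and PABPC1, the poly(A)-binding protein, had 18 and 11 siTRMT6 reads and none in control. The 4 genes of this list with reads of both conditions had a median summed log2 of -0.26, against -0.065 over the 1933 such genes of the table.

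Likeness to each member was measured as the summed absolute difference between the shares of a gene's reads held by each of the 4 libraries, among the 95 other genes with at least 8 positions. A value of 0 means identical shares. LARP1 was closest to GATAD2A (0.11), which had 31 and 35 siTRMT6 reads and 23 and 31 control reads, followed by LUC7L2 (0.22) and FSCN1 (0.22). PRRC2B was closest to CTTN (0.052), with 47 and 7 siTRMT6 reads and 0 and 50 control reads, followed by MMP2 (0.080) and CCND1 (0.083). UBAP2L was closest to CALM3 (0.19), followed by BUB1B (0.21) and CCT7 (0.26). The measure rests on 4 libraries and describes where the reads were listed.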

How the data were processed

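The authors' deposited table lists m1A positions by transcript and holds, per the file headers, read counts of 4 libraries beside the log2 fold change with its p-value, raw and adjusted. STAR, FastQC 0.11.3 and the build hg38 are named, per the submitters' processing notes. How positions were called, counted, stranded and tested is not given in the sources used here. Count columns name condition and number only, and were taken as m1A reads. Positions, deposited counting from 0, are given from 1. Gene spans come from a RefSeq table (GRCh38.p14). Sequence around positions was not analysed here.

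The members and gene lists were chosen with earlier results of these data known. Some genes of the lists are not reported here. Named genes were the 3 members, up to 6 listed relatives a list with the most reads, and the 3 genes closest in library shares. Positions of a gene within 200 nt were joined. Counts were fitted with edgeR 4.0.16 (TMM, filterByExpr with a minimum of 10, Benjamini-Hochberg at 0.05) in R 4.3.3, with DESeq2 1.42.0 as an alternative. The fit was tested on simulated counts that spread each gene over all libraries by their listed reads. Most real positions had reads in 1 library, so that run says nothing on power or error rate in these data. Exact 95% intervals cover counting error only, since reads without molecular identifiers are not independent molecules. LARP1 has 1 annotated pseudogene, LARP1P1, whose reads could be shared with it; its span had 0 listed positions.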

Additional observations from a re-analysis of the deposited data

How the results depend on the processing

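Of 59 alternatives, 45 kept their value within the replicate spread or within 1.5 times the count. For the summed log2 values that spread was the approximate single-library SD of 1.36 to 2.35, so values that changed sign also count as kept. Calls of 0 that stayed at 0 count as kept too, so the tally is not a measure of stability. The 22 position calls of edgeR fell to 14 with library sizes taken as listed reads and to 0 with DESeq2, with no filter on low counts, with the replicate number as a block and without each library in turn (0 to 0). Gene calls, 0 in edgeR, were 1 with DESeq2. Stretches of the 3 genes holding both conditions, 8 in all, numbered 3 to 7 without each library in turn, and opposite neighbours, 9 in all, numbered 3 to 7. The deviations of same-numbered libraries had a correlation of -0.077 over 1823 genes with at least 20 reads. With 98.6% of positions read in 1 library, that value cannot show whether they share a batch. The block, which left 0 positions, 0 stretches and 0 genes called, pairs samples by number only. PRRC2B had no summed value without control 2. Listed reads of 6 to 32 per position limit each ratio, and depth of the libraries is unknown.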

Other observations

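Neighbours on the same mRNA differed with the path between them, and so with their distance on the genome. The comparison was chosen after the data were seen. Over all genes, no library had 2 listed positions of a gene closer than 317 nt on the genome. Of the 2061 neighbouring pairs within 200 nt in 1 exon, 0 had reads of 1 library at both bases and 75.2% had opposite directions. Of the 611 pairs within 200 nt along the transcript but with an intron between them, 183 (29.95%) had reads of 1 library at both bases and 49.6% had opposite directions. In LARP1, PRRC2B and UBAP2L the same counts were 0 of 12 pairs in 1 exon, with 9 opposite, and 1 of 4 pairs across an intron, with 2 opposite. The share of opposite neighbours was thus higher in an exon, where no pair had reads of 1 library at both bases, than across an intron. Of the 611 pairs across an intron, 591 lay more than 200 nt apart on the genome, against 0 of the 2061 pairs in 1 exon. The path and the genomic distance thus cannot be told apart here. Whether the spacing of positions within each library has a part in the 75% seen in the 3 genes was not tested.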
